A study of Danio rerio with 12 samples.

Results

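The genes described here encode the proteins of the cytosolic ribosome. They were taken from the deposited gene tables by symbol: rpl or rps followed by a digit, or rpsa, rplp0, rplp1 or rplp2, with the type protein coding. The 11 kinase genes whose symbols begin with rps6k were left out. The rule found 80 genes of 31540, of which 46 were counted by symbol with the large subunit and 33 with the small subunit. The remaining gene, rps19bp1, encodes a protein that binds a small-subunit protein and is not itself a subunit. Counted with the large subunit, rpl7l1 encodes a relative of rpl7 known from ribosome assembly. All 80 genes had enough counts to be tested, among 22399 tested genes. The symbol rpl37 stands for 2 identifiers, both counted with the large subunit. The rarer one carries another gene name in the reference gene table and is uncertain.

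A ribosome holds nearly every one of these proteins in a single copy, so a cell makes them in matched amounts. Their messenger RNAs begin with a run of pyrimidines (the TOP motif), through which mTOR signalling controls their translation. They are among the most abundant messages of growing tissue, and their amount per cell follows growth and protein synthesis.

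Bisphenol A (BPA) is a building block of polycarbonate plastics and a weak estrogen receptor ligand. Messenger RNA from whole wild-type zebrafish (Danio rerio) larvae, at the free-living eleutheroembryo stage, was sequenced at 5 days post fertilization after exposure through the water from day 2 to day 5. There were 4 groups of 3 libraries: a control without BPA, and BPA at 0.1, 1 and 4 mg/L, and every group, the control included, was kept in 0.2% DMSO, the solvent of the BPA stocks. For each library 10 larvae were pooled, and it carries a replicate number from 1 to 3, and the labels do not say what a number stands for. Whether pools came from separate clutches or dishes is not stated either, so p-values measure the spread between pools only. In a whole larva, fewer cells of a type and less RNA per cell cannot be told apart. Total counts ran from 21.95 to 34.22 M (mega, as in Mb) per library, mitochondrial transcripts took 1.91% to 2.89% of them, and no libraries of a group agreed within counting noise.

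The ribosomal protein genes together made up between 8.47% and 12.3% of each library, and their share was highest in the libraries numbered 3 whatever the dose. In control replicates 1, 2 and 3 the share was 8.47%, 9.91% and 11.6% of the library's counts. At 0.1 mg/L it was 9.64%, 9.55% and 12.3%. At 1 mg/L it was 9.16%, 8.68% and 11.9%. The library numbered 3 had the highest share in each of the 4 groups, and the groups overlapped one another. At 4 mg/L the shares were 8.49%, 9.03% and 11.1%. The group means were 10.0% ± 1.59, 10.5% ± 1.55, 9.92% ± 1.74 and 9.55% ± 1.40 from control to 4 mg/L (SD, n = 3 each). Against control the share differed by 0.480, -0.0909 and -0.456 percentage points at 0.1, 1 and 4 mg/L, with 2-sided exact permutation p = 0.7, 1.0 and 0.8, where 3 libraries against 3 allow no p below 0.1. By replicate number the means were 8.94% ± 0.568, 9.29% ± 0.548 and 11.7% ± 0.478 (SD, n = 4 each). The share needs no scaling factor between libraries, but it is a share of what else was counted.

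**Figure D1:**
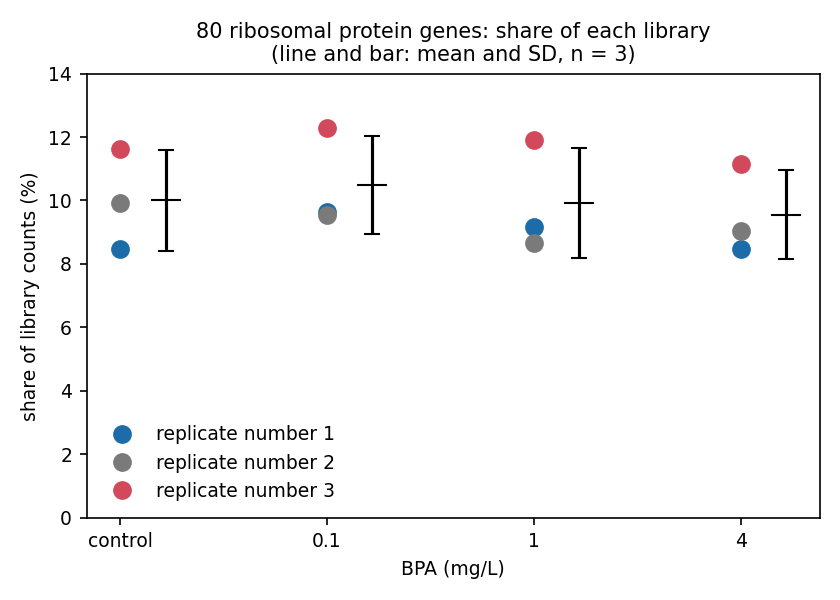
Share of each library's counts (y axis, %) taken by the 80 ribosomal protein genes, by BPA group (x axis, mg/L). Points are libraries coloured by replicate number, and the line and bar beside them are the mean and SD of 3 libraries; the libraries numbered 3 lie at 11.1% to 12.3% in the 4 groups, above every library numbered 1 or 2.

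The 80 genes moved together from library to library. On the log2 scale of CPM (counts scaled by TMM to a common library total), the first principal component held 94.3% of their variance over the 12 libraries, against 29.3% for all tested genes. The correlation of a gene with the mean of the other 79 had a median of 0.98, and it was over 0.9 for 71 genes. These correlations describe 12 libraries that all genes share. The ratio of large-subunit to small-subunit counts stayed between 1.42 and 1.49 in all 12 libraries. In control replicate 3, 79 of the 80 genes lay above their own mean over the 12 libraries, and in control replicate 1 only 1 gene did. At 4 mg/L the counts of such genes were 0, 0 and 76 in replicates 1, 2 and 3. At 1 mg/L they were 4, 1 and 80. Control replicate 2, with 75 genes above their means, stood apart from the other libraries of its number, where 27, 1 and 0 genes did at 0.1, 1 and 4 mg/L.

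The genes that followed the others least were rps19bp1, with a correlation of 0.0033, rpl7l1 with 0.48 and rpsa with 0.57. The first of them codes for no subunit and the second for an assembly factor. rpsa encodes a small-subunit protein that is also known as the laminin receptor. The genes that varied most over the 12 libraries were rpl11, with an SD of 0.475 on the log2 scale, rpl22l1 with 0.474 and rps19 with 0.463. rps19bp1 varied least, with 0.0855.

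**Figure D2:**
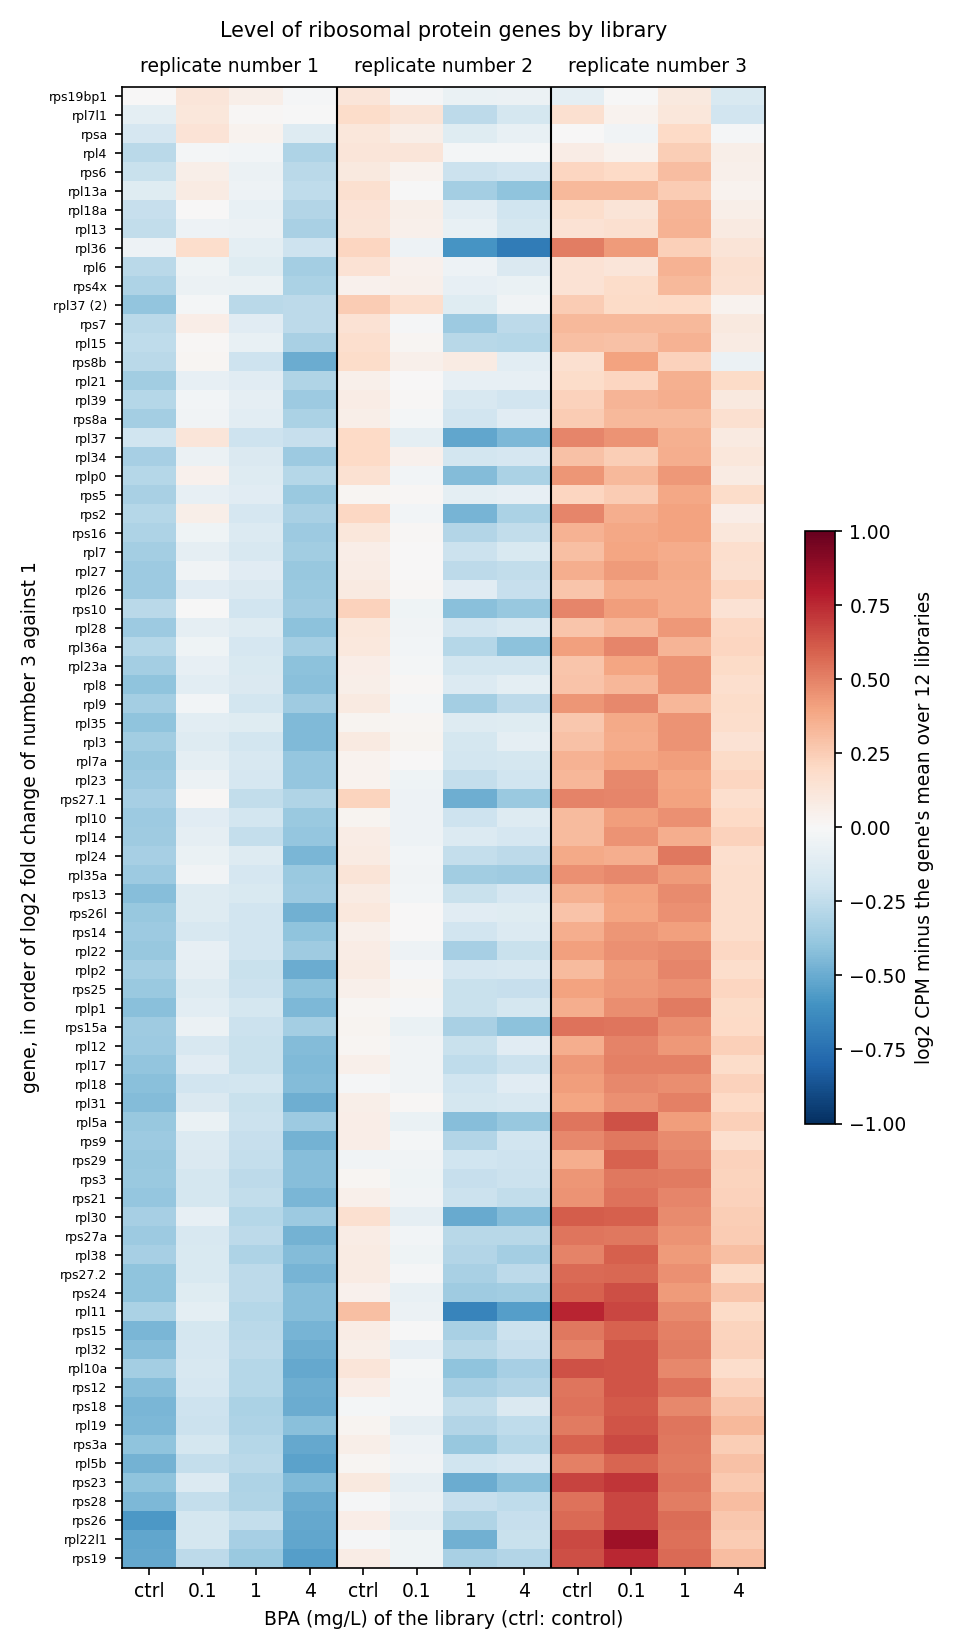
Level of ribosomal protein genes (rows, ordered by log2 fold change of replicate number 3 against 1) in the 12 libraries (columns, ordered by replicate number and then by BPA dose in mg/L). Colour is log2 CPM minus the gene's own mean over the 12 libraries; the block of libraries numbered 3 is red for nearly all genes, palest at 4 mg/L, and the rows of rps19bp1, rpl7l1 and rpsa at the top stay near 0. The row marked (2) is the rarer rpl37 identifier.

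Replicate number, with dose group in the model, was the comparison in which ribosomal protein genes changed. In the libraries numbered 3, 73 of the 80 genes were higher than in those numbered 1 and 0 were lower (edgeR's quasi-likelihood test, Benjamini-Hochberg adjusted p under 0.05 over all tested genes), with a median log2 fold change of 0.60. Over all tested genes 10.1% were called higher and 8.9% lower in the same comparison, with a median of 0.01. For 72 of the 80 genes, all 4 libraries numbered 3 lay above all 4 numbered 1, where 9.96% of all tested genes did so. Among genes counted with the large subunit 42 of 46 were called higher, with a median of 0.59. Among those counted with the small subunit 31 of 33 were, with a median of 0.66. With each of the 12 libraries left out in turn, 62 to 76 genes were called higher, and 61 genes were called in every one of these fits. The shares of all tested genes called in these fits are not given here. Scaling by library totals alone moved the median of all tested genes to -0.18 and that of the 80 genes to 0.41. The distance between both medians was 0.59 under either scaling. A change of scaling shifts all genes by nearly the same amount, so this distance could hardly change and is no test of the result.

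The largest of these differences were in rps19, rpl22l1, rps26 and rps28. The rps19 gene encodes a small-subunit protein needed to mature the small-subunit RNA, and its human gene is the one most often mutated in Diamond-Blackfan anemia. Its level in the libraries numbered 1 was 626 CPM in control and 743, 689 and 609 CPM at 0.1, 1 and 4 mg/L. In those numbered 2 it was 938, 863, 710 and 727 CPM in the same order, and in those numbered 3 it was 1391, 1501, 1319 and 1100 CPM. Every library numbered 3 thus lay above every other library. The log2 fold change of number 3 against 1 was 0.99 ± 0.0992 (SE; adjusted p = 0.000614, edgeR). The human counterparts of rpl35a and rps24 are Diamond-Blackfan genes too, and here the log2 fold changes of number 3 against 1 were 0.61 ± 0.109 (SE; adjusted p = 0.00427) and 0.78 ± 0.0984 (SE; adjusted p = 0.000977, both edgeR).

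For rpl22l1, a close relative of the large-subunit gene rpl22, the levels from control to 4 mg/L were 186, 236, 212 and 186 CPM in the libraries numbered 1. They were 264, 259, 191 and 228 CPM in those numbered 2 and 421, 479, 390 and 318 CPM in those numbered 3. The lowest library numbered 3, at 4 mg/L, was above the highest of the other 8. Its log2 fold change of number 3 against 1 was 0.96 ± 0.112 (SE; adjusted p = 0.000806, edgeR), beside 0.64 ± 0.102 for rpl22 (SE; adjusted p = 0.00264, edgeR). The small-subunit genes rps26 and rps28 gave 0.89 ± 0.110 and 0.88 ± 0.0838 (SE; adjusted p = 0.000944 and 0.000587, edgeR).

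The stalk of the large subunit, which recruits elongation factors, is built from the products of rplp0, rplp1 and rplp2. rplp0 stood at 4724, 5923, 5260 and 4727 CPM from control to 4 mg/L in the libraries numbered 1. It stood at 6387, 5637, 4254 and 4623 CPM in those numbered 2, and at 7788, 7181, 7763 and 6084 CPM in those numbered 3. Control replicate 2 reached above the library numbered 3 at 4 mg/L, so that for this gene numbers 2 and 3 overlapped. The log2 fold changes of number 3 against 1 were 0.48 ± 0.130 for rplp0 (SE; adjusted p = 0.0278), 0.67 ± 0.0993 for rplp1 (SE; adjusted p = 0.00181) and 0.64 ± 0.0901 for rplp2 (SE; adjusted p = 0.00153, all edgeR). The call of rplp0 rested on single libraries, and it was made in 6 of the 12 fits that left out 1 library each.

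The products of rpl5a, rpl5b and rpl11 enter the large subunit together with its smallest RNA, and in mammals the complex is known to bind the p53 regulator MDM2 when ribosome assembly is disturbed. All 3 genes were higher in number 3 than in number 1, with log2 fold changes of 0.71 ± 0.108, 0.85 ± 0.0917 and 0.80 ± 0.140 (SE; adjusted p = 0.00213, 0.000654 and 0.00417, edgeR). rpl5a and rpl5b are copies of 1 ancestral gene, and rpl5a took 49.5% to 56.6% of the counts of the pair over the 12 libraries. The rps27a gene, which encodes a small-subunit protein fused to ubiquitin, was higher by 0.75 ± 0.0928 (SE; adjusted p = 0.000931, edgeR). rps6, whose protein is phosphorylated by kinases downstream of mTOR, was higher by 0.32 ± 0.101 (SE; adjusted p = 0.0497, edgeR). That call lay at the threshold, with an adjusted p of 0.20 under scaling by library totals and 0.060 without a filter on low counts, and it was made in 2 of the 12 fits that left out 1 library each.

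Among the genes that did not pass the test between numbers 3 and 1 were rps19bp1, rpl7l1, rpsa, rpl4, rpl13a and rpl36. rpsa stood at 2125, 2624, 2452 and 2187 CPM from control to 4 mg/L in the libraries numbered 1. It stood at 2588, 2494, 2200 and 2265 CPM in those numbered 2, and at 2402, 2328, 2742 and 2372 CPM in those numbered 3. The 3 numbers overlapped fully, and the log2 fold change of number 3 against 1 was 0.07 ± 0.105 (SE; adjusted p = 0.68, edgeR). For rps19bp1 the libraries numbered 1 lay at 21.0, 22.8, 21.8 and 20.8 CPM and those numbered 3 at 19.6, 21.0, 22.4 and 18.9 CPM. Its log2 fold change was -0.08 ± 0.0781 (SE; adjusted p = 0.52, edgeR) and was called lower, at -0.27 with an adjusted p of 0.017, under scaling by library totals alone. rpl7l1 gave 0.02 ± 0.101 (SE; adjusted p = 0.91, edgeR). The log2 fold changes of rpl4, rpl13a and rpl36 were 0.26, 0.32 and 0.37 with adjusted p = 0.091, 0.053 and 0.061 (edgeR).

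Between numbers 3 and 2, 56 of the 80 genes were called higher and 0 lower, with a median of 0.47, where 3.46% of all tested genes were called higher. This count rested on single libraries. It was 0 without replicate 2 at 0.1 mg/L or without replicate 3 at 1 mg/L, and 4 without replicate 2 at 1 mg/L. It was 24 without replicate 2 at 4 mg/L, 26 without replicate 3 at 0.1 mg/L and 28 without control replicate 3, while the median stayed between 0.39 and 0.52. The shares of all tested genes called in these fits are not given here. A loss of calls over all genes therefore cannot be told from a loss among the 80. Between numbers 2 and 1, edgeR called 0 of the 80 genes, where 0.0938% of all tested genes were called. There 18 of the 80 genes had an unadjusted p under 0.05 in edgeR, beside 16.5% of all tested genes, and the median was 0.18. DESeq2 called 1 of the 80 genes higher, and its calls over all tested genes are not given here.

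Other measures moved with the replicate numbers. The libraries numbered 3 held 21.95 to 29.75 M counts and those numbered 1 held 29.34 to 33.75 M. The summed level of 20 skeletal muscle markers ran from 79051 to 115569 CPM in number 1 and from 103480 to 169524 CPM in number 3, and 12 of the 20 were called higher and 1 lower. All 16 markers of proliferating cells were called lower in number 3, with a median log2 fold change of -0.79 and a summed level of 559 to 831 CPM against 842 to 1286 CPM in number 1. Among 15 photoreceptor markers 11 were called lower and 1 higher, with a summed level of 2874 to 4279 CPM against 3387 to 6560 CPM. The other marker lists had 0 to 4 genes called. Called higher were 4 of 16 for hepatocytes, 4 of 8 for red cells and 3 of 10 for exocrine pancreas. Called lower was 1 of 8 for cartilage and bone. For neurons, epidermis, and neutrophils and macrophages, 0 of 10, 0 of 9 and 0 of 6 were called. Over all tested genes 10.1% were called higher and 8.9% lower. By library totals alone, 10 muscle markers were higher and 2 lower, and 16 proliferation and 13 photoreceptor markers were lower. Counts higher and lower were then 0 and 3 for hepatocytes, 2 and 1 for red cells and 1 and 0 for exocrine pancreas. They were 0 and 2 for epidermis, 0 and 3 for cartilage and bone, 0 and 2 for neutrophils and macrophages, and 0 and 0 for neurons. Under this scaling the median of all tested genes was -0.18. The shares of them called are not given here, so these counts cannot be set against a share of all genes. 1 red cell marker and 1 cartilage and bone marker were at 0 in at least 1 library, and 0 of the other markers were. The part of these differences in the result for ribosomal protein genes was not tested.

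Other lists of the translation machinery were counted between numbers 3 and 1 beside the 10.1% of all tested genes called higher and the 8.9% called lower, and no list was tested as a whole. Of 49 genes for translation factors and their partners, 19 were called higher and 3 lower, with a median log2 fold change of 0.19. Those higher included tpt1, which encodes a growth-related protein translated from a TOP message, at 0.84 ± 0.114 (SE; adjusted p = 0.00132), the elongation factor gene eef1g at 0.79 ± 0.101 (SE; adjusted p = 0.00105) and btf3, a gene of the nascent-chain complex, at 0.72 ± 0.133 (SE; adjusted p = 0.00541, all edgeR). The 3 lower ones were eif5a2, pabpc1a and eif5b, at -0.38, -0.35 and -0.32 (adjusted p = 0.00654, 0.0421 and 0.0137, edgeR). Under scaling by library totals alone, the median of this list was 0.00, with 14 called higher and 12 lower. The median of all tested genes was then -0.18, and the shares of them called under this scaling are not given here.

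Of 54 genes of ribosome biogenesis, which make and process ribosomal RNA in the nucleolus, 5 were called higher and 5 lower, with a median of -0.05. The fibrillarin gene fbl was lower by -0.47 ± 0.0828 and bop1 by -0.40 ± 0.112 on the log2 scale, and pno1 was higher by 0.46 ± 0.112 (SE; adjusted p = 0.00418, 0.0307 and 0.0171, edgeR). Of 25 genes of mTOR and translation control, 0 were called higher and 4 lower, among them mtor at -0.37 ± 0.0805 and the kinase gene rps6ka1 at -0.39 ± 0.0806 (SE; adjusted p = 0.0104 and 0.0083, edgeR). Of 72 genes for mitochondrial ribosomal proteins, 16 were called higher and 0 lower, with a median of 0.11. With library totals alone these last 3 counts became 1 higher and 26 lower, 0 and 11, and 4 and 15. The median of all tested genes was then -0.18. The shares of them called are not given here, so these counts cannot be set against a share of all genes.

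**Figure D3:**
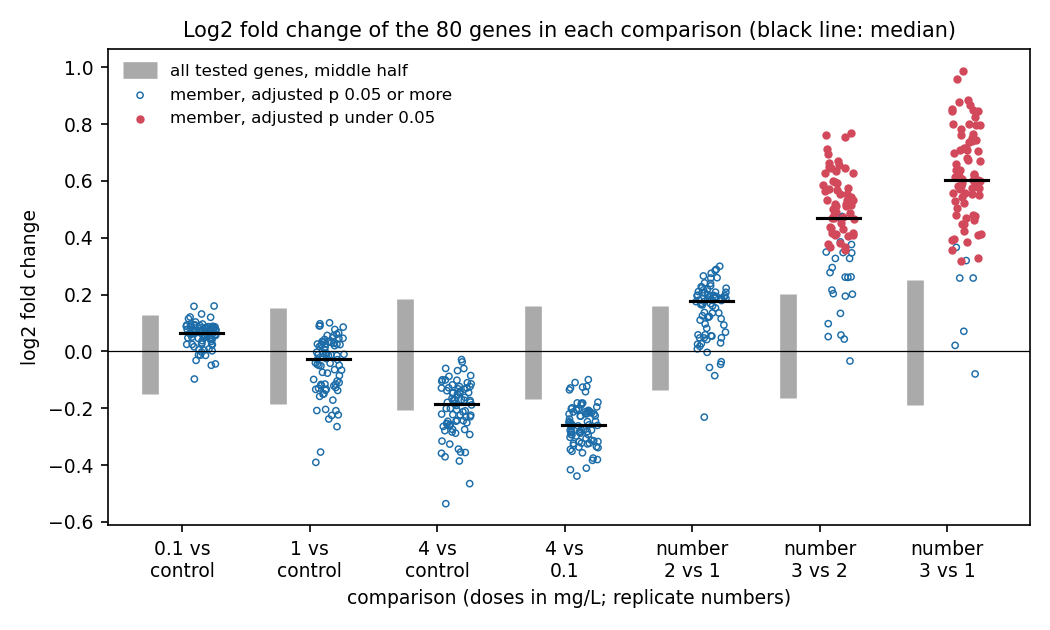
Log2 fold change (y axis) of the 80 genes in 7 comparisons (x axis: BPA doses in mg/L, and replicate numbers, fitted with dose group as a further term). Each circle is a gene, filled red where the adjusted p is under 0.05, the black line is the median of the 80 genes, and the grey bar spans the 25th to 75th percentile of all tested genes; red circles appear only in the comparisons of number 3 with numbers 1 and 2, with medians of 0.60 and 0.47.

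No ribosomal protein gene was called between any dose and control. At 0.1, 1 and 4 mg/L, 0 of 80 genes were called by edgeR, and also by DESeq2 and by limma-voom. In edgeR without a term for replicate number, 0 of 80 genes had an unadjusted p under 0.05 at each dose. Beside them 5.01%, 8.77% and 12.4% of all tested genes had one. Over all tested genes 0%, 0.067% and 0.281% were called. The smallest adjusted p among the 80 genes was 0.996, 0.73 and 0.48 from the lowest to the highest dose. That fit left the differences between replicate numbers in the spread. In edgeR with the number as a block, 0 of 80 genes were again called at each dose. Over all tested genes 0.00893%, 1.33% and 4.88% were called in that fit. There 0, 2 and 18 of 80 had an unadjusted p under 0.05, beside 10.8%, 16.5% and 22.1% of all tested genes. By their correlations, however, the libraries numbered 2 did not pair between control and doses. No gene had libraries that did not overlap with control, where 5.09% and 4.71% of all tested genes did in the higher and the lower direction at 0.1 mg/L, 8.05% and 6.08% at 1 mg/L, and 8.23% and 8.91% at 4 mg/L. For 72 of the 80 genes, every library numbered 3 lay above every library numbered 1. Each group held 1 library of either number, so for these genes no dose could separate from control. The absence of such a separation therefore does not speak to a dose effect. The test for any difference among the 4 groups called 0 of the 80 genes, beside 0.0625% of all. In it 0 of 80 had an unadjusted p under 0.05, beside 7.76% of all. The test for a trend over dose ranks, without a term for replicate number, called 0, beside 0.219% of all. In it 1 of 80 had an unadjusted p under 0.05, beside 14% of all. With the number as a block, the trend called 2 of the 80 genes lower, rpl11 and rpl36, beside 4.26% of all called in either direction. In that edgeR fit 25 of 80 had an unadjusted p under 0.05, beside 22.9% of all. On simulated counts for 4 mg/L against control, a fit with group as the only term recovered 29.9% of 1.5-fold and 76.1% of 2-fold changes. Those counts held no difference between replicate numbers, and their spread was estimated with replicate number in the model. They therefore do not give the recovery for ribosomal protein genes, which differed between replicate numbers. Each of the 80 differences at 4 mg/L was below 1.5-fold.

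The medians of the 80 log2 fold changes against control were 0.07 at 0.1 mg/L, -0.03 at 1 mg/L and -0.19 at 4 mg/L. At 0.1 mg/L 72 of 80 values were above 0, where 48.4% of all tested genes were. At 1 mg/L 29 were above 0, where 48.1% of all were. All 80 were below 0 at 4 mg/L, where 50.4% of all were. The 3 comparisons share the control libraries, and the genes move together, so that they are not independent replicates. The signs of all 3 medians rested on single libraries. At 0.1 mg/L the median was -0.11 without control replicate 1 and -0.11 without replicate 3 at that dose, with 2 and 9 of 80 values above 0, and it was 0.25 without control replicate 3. At 1 mg/L the median was -0.21 without control replicate 1 and -0.26 without replicate 3 at that dose. It was 0.14 without control replicate 3, and 0.08 and 0.09 without replicates 1 and 2 at 1 mg/L. At 4 mg/L the median was 0.01 without control replicate 3, with 38 of 80 values below 0, and -0.07 without the library numbered 1 at that dose. It was -0.37 without control replicate 1 and -0.35 without replicate 3 at 4 mg/L. Under scaling by library totals alone, the median at 4 mg/L was -0.04, with 54 of 80 values below 0, while the median of all tested genes was 0.13.

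Within replicate numbers the differences from control did not share a sign. For number 1 the median log2 difference from control was 0.26, 0.16 and -0.04 at 0.1, 1 and 4 mg/L. For number 2 it was -0.09, -0.31 and -0.29, and for number 3 it was 0.06, 0.05 and -0.21. Only at 4 mg/L were all 3 medians below 0. Between the treated groups, 4 minus 0.1 mg/L gave medians of -0.30, -0.20 and -0.27 for numbers 1, 2 and 3, with 80, 80 and 77 of 80 genes lower. For 4 minus 1 mg/L the medians were -0.21, 0.03 and -0.25, with 59 of 80 genes higher in number 2. For 1 minus 0.1 mg/L they were -0.09, -0.21 and -0.02.

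Between doses, 0 of 80 genes were called in each comparison by edgeR, DESeq2 and limma-voom, beside 0.00893% of all tested genes in each (1 against 0.1, 4 against 1 and 4 against 0.1 mg/L). In edgeR without a term for replicate number, 0 of the 80 genes had an unadjusted p under 0.05 in any of them. Of all tested genes 1.95%, 4.72% and 6.68% had one, in the same order. Same-numbered libraries of the doses paired by their correlations, which the fits above left out. With the replicate number as a block, 0 of 80 were again called in each comparison. Beside them 0.00893%, 0.067% and 0.143% of all tested genes were called, in the same order. There 45 of 80 had an unadjusted p under 0.05 in 4 against 0.1 mg/L, beside 14.4% of all tested genes. In that fit 2 of 80 had one in 1 against 0.1 mg/L, beside 4.92% of all tested genes, and 1 of 80 in 4 against 1 mg/L, beside 9.88%. The medians were -0.11, -0.15 and -0.26 without the block and -0.12, -0.14 and -0.27 with it. The median of 1 against 0.1 mg/L was -0.35 without replicate 3 at 1 mg/L and 0.08 without replicate 3 at 0.1 mg/L. That of 4 against 1 mg/L was -0.31 without replicate 3 at 4 mg/L and 0.10 without replicate 3 at 1 mg/L. In 4 against 0.1 mg/L the median was -0.06 without replicate 3 at 0.1 mg/L and -0.14 without replicate 1 at 4 mg/L, and all 80 values lay below 0 in the fit to all libraries, where 50% of all tested genes did. For rps8b, rpl7l1 and rps19bp1 all 3 libraries at 4 mg/L lay below all 3 at 0.1 mg/L, beside 6.88% of all tested genes. For the 72 genes with every library numbered 3 above every one numbered 1, no such separation was possible.

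The lowest log2 fold changes at 4 mg/L were those of rpl11 and rpl36, which encode large-subunit proteins. rpl11 stood at 1447, 2212 and 3046 CPM in control replicates 1, 2 and 3 and at 1680, 1730 and 2858 CPM at 0.1 mg/L. It stood at 1480, 1137 and 2498 CPM at 1 mg/L and at 1338, 1231 and 2056 CPM at 4 mg/L. The groups overlapped in every comparison, since control replicate 1 was lower than the libraries numbered 3 at all doses. The log2 fold change was -0.10 ± 0.352 at 0.1 mg/L, -0.39 ± 0.354 at 1 mg/L and -0.54 ± 0.353 at 4 mg/L (SE; adjusted p = 0.996, 0.78 and 0.55, edgeR). rpl36 stood at 801, 961 and 1186 CPM in control, 936, 801 and 1113 CPM at 0.1 mg/L, 777, 552 and 977 CPM at 1 mg/L, and 717, 512 and 906 CPM at 4 mg/L. The libraries numbered 2 at 1 and 4 mg/L were the lowest of the 12. Its log2 fold change at 4 mg/L was -0.47 ± 0.256 (SE; adjusted p = 0.48, edgeR). These fits had no term for replicate number. With the number as a block, rpl11 and rpl36 were called lower in the trend over dose ranks, beside 4.26% of all tested genes called. They changed by -0.19 and -0.18 per rank (adjusted p = 0.0499 and 0.042, edgeR). The libraries numbered 2 did not pair between control and doses, however.

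At the other end were rps4x, a small-subunit gene, and rpl21, a large-subunit gene. Their log2 fold changes at 4 mg/L were -0.04 ± 0.193 and -0.03 ± 0.198 (SE; adjusted p = 0.95 and 0.96, edgeR), and both were above 0 under scaling by library totals alone. At 1 mg/L rps4x and the large-subunit gene rpl35 had the highest values, both 0.10 (adjusted p = 0.91 and 0.92, edgeR). At 0.1 mg/L these were rpl22l1 and the small-subunit gene rps29, both 0.16 (adjusted p = 0.996, edgeR). rplp0 and rps6 gave -0.29 ± 0.265 and -0.17 ± 0.190 at 4 mg/L (SE; adjusted p = 0.66 and 0.73, edgeR).

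The level of a gene relative to the other ribosomal protein genes of the same library sets aside their shared shift only where the gene shifts as much as they do. For rpl11 this log2 level, centred on its mean over the 12 libraries, was 0.03, 0.21 and 0.38 in control replicates 1, 2 and 3. It was -0.02, -0.04 and 0.24 at 0.1 mg/L, -0.10, -0.41 and 0.06 at 1 mg/L, and -0.05, -0.32 and 0.02 at 4 mg/L. The library numbered 3 was thus still the highest in every group. rpl11 varied more than most of the 80 genes, with an SD of 0.475 on the log2 scale beside a median of 0.308. For rpl11 all 3 libraries at 4 mg/L lay below all 3 controls, by a margin of less than 0.01 between the nearest libraries. The means were 0.21 ± 0.178 in control and -0.12 ± 0.182 at 4 mg/L (SD, n = 3). For rpl36 the control values were 0.29, 0.12 and 0.13 and those at 4 mg/L 0.17, -0.47 and -0.04, which overlapped. For rpl21 all 3 libraries at 4 mg/L (0.08, 0.15 and 0.02) lay above all 3 controls (-0.01, -0.04 and -0.20). Its means were -0.08 ± 0.106 in control and 0.09 ± 0.0647 at 4 mg/L (SD, n = 3). For rps4x they were -0.08 ± 0.139 and 0.07 ± 0.0890. Separation on this scale was not limited to rpl11 and rpl21. For rpl10 the controls lay at -0.02, -0.06 and -0.07 and the libraries at 4 mg/L at 0.01, 0.10 and 0.03. Such separations were not counted over the 80 genes. rpl11, rpl36, rpl21 and rps4x were chosen by their log2 fold changes in the same libraries, so the values are a description.

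**Figure D4:**
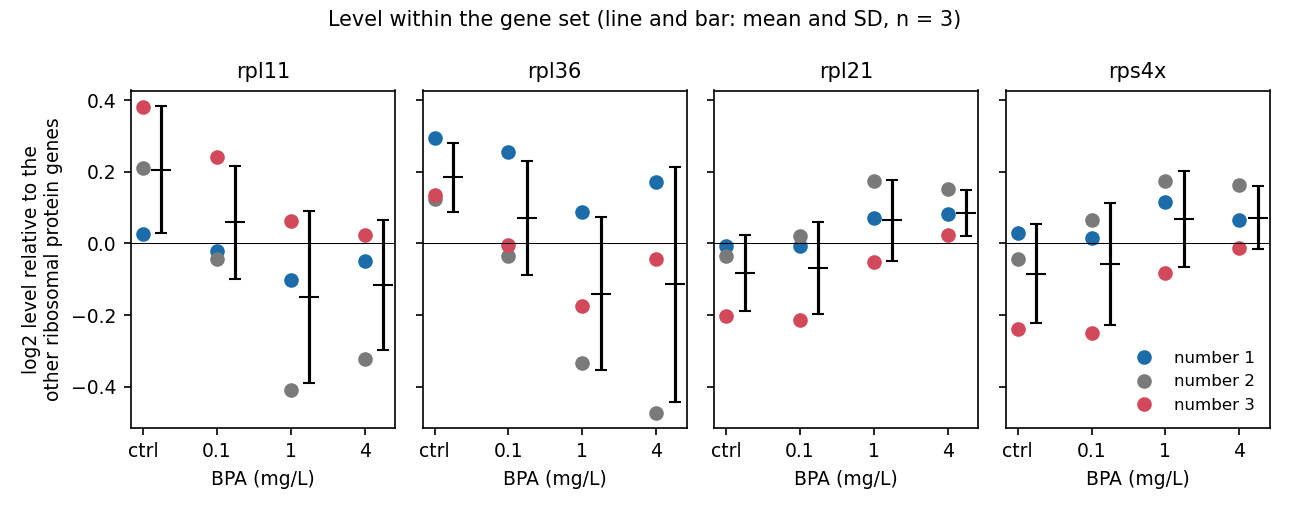
Log2 level of 4 genes relative to the other ribosomal protein genes of the same library (y axis), by BPA group (x axis, mg/L; ctrl is control). Points are libraries coloured by replicate number and the line and bar beside them are the mean and SD of 3 libraries; rpl11 and rpl36 have their highest means in control and rpl21 and rps4x their highest means at 4 mg/L.

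Other lists at 4 mg/L against control gave few calls in edgeR. The translation factor list had 0 of 49 called with a median log2 fold change of -0.10, which was 0.04 under scaling by library totals alone, and ribosome biogenesis 0 of 54 with a median of -0.23. The mTOR list had 0 of 25 called with a median of 0.05, and the mitochondrial ribosomal proteins 0 of 72 with a median of -0.02, which was 0.13 under library totals. Of the marker lists, skeletal muscle had 0 of 20 called with a median of -0.52 and proliferating cells 0 of 16 with a median of 0.55. The summed muscle level was 101826 to 169524 CPM in control and 79051 to 103480 CPM at 4 mg/L, and the summed proliferation level 559 to 842 CPM and 831 to 1232 CPM. Hepatocyte markers had 2 of 16 called higher, with a median of 0.46. Red cell markers had 0 of 8 called, with a median of 0.76. The other marker lists had 0 called each. Their medians were 0.35 for cartilage and bone, 0.33 for exocrine pancreas and 0.28 for neurons. They were -0.23 for epidermis, -0.16 for photoreceptors and -0.14 for neutrophils and macrophages. All 8 red cell and all 16 proliferation values were above 0, and 18 of 20 muscle values were below 0. All 8 cartilage and bone and 9 of 10 neuron values were above 0 too, and all 9 epidermis values were below 0. An unadjusted p under 0.05 was found for 6 of 8 red cell, 7 of 16 proliferation, 8 of 20 muscle and 9 of 16 hepatocyte markers. It was found for 4 of 8 cartilage and bone, 1 of 15 photoreceptor, 1 of 9 epidermis and 1 of 6 neutrophil and macrophage markers. For neurons and for exocrine pancreas it was found for 0 of 10. It was found for 15 of 54 biogenesis, 5 of 49 translation factor, 5 of 25 mTOR and 5 of 72 mitochondrial ribosomal protein genes. Over all tested genes the share was 12.4%. DESeq2 called 1 translation factor gene, 1 biogenesis gene, 3 mTOR genes and 2 muscle genes lower, and 5 hepatocyte and 2 red cell markers higher. Its calls over all tested genes are not given here, so these counts cannot be set against a share of all genes. The part of these lists in the values of the ribosomal protein genes was not tested.

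Several ribosomal protein genes have a close relative in the files, and the share of one gene in such a pair can be read without scaling between libraries. Whether reads that match both copies were divided between them is not given in the sources used here, so the shares of near-identical copies are uncertain. rps8b took 0.423% to 0.590% of the counts of the pair with rps8a, which left rps8a as the copy nearly all reads were assigned to. rps27.2 took 38.0% to 43.4% of its pair with rps27.1, and rplp2 took 26.8% to 30.2% of its pair with rplp2l. None of these shares was ordered by dose in all 3 numbers.

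Other pairs shifted with replicate number. rpl22l1 took 30.0% ± 0.433 of its pair with rpl22 in the libraries numbered 1, 31.1% ± 1.11 in those numbered 2 and 34.9% ± 2.54 in those numbered 3 (SD, n = 4 each). rps26 took 40.8% ± 1.29, 40.4% ± 1.00 and 45.4% ± 1.79 of its pair with rps26l in the same order. For both pairs every library numbered 3 lay above every other library. The share of rpl7l1 in its pair with rpl7 went the other way, with 3.38% ± 0.176, 2.96% ± 0.181 and 2.38% ± 0.172. By dose, the mean shares of rpl22l1 were 32.1% ± 3.20, 33.6% ± 3.97, 30.9% ± 1.90 and 31.3% ± 1.60 from control to 4 mg/L (SD, n = 3 each), which overlapped.

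**Figure D5:**
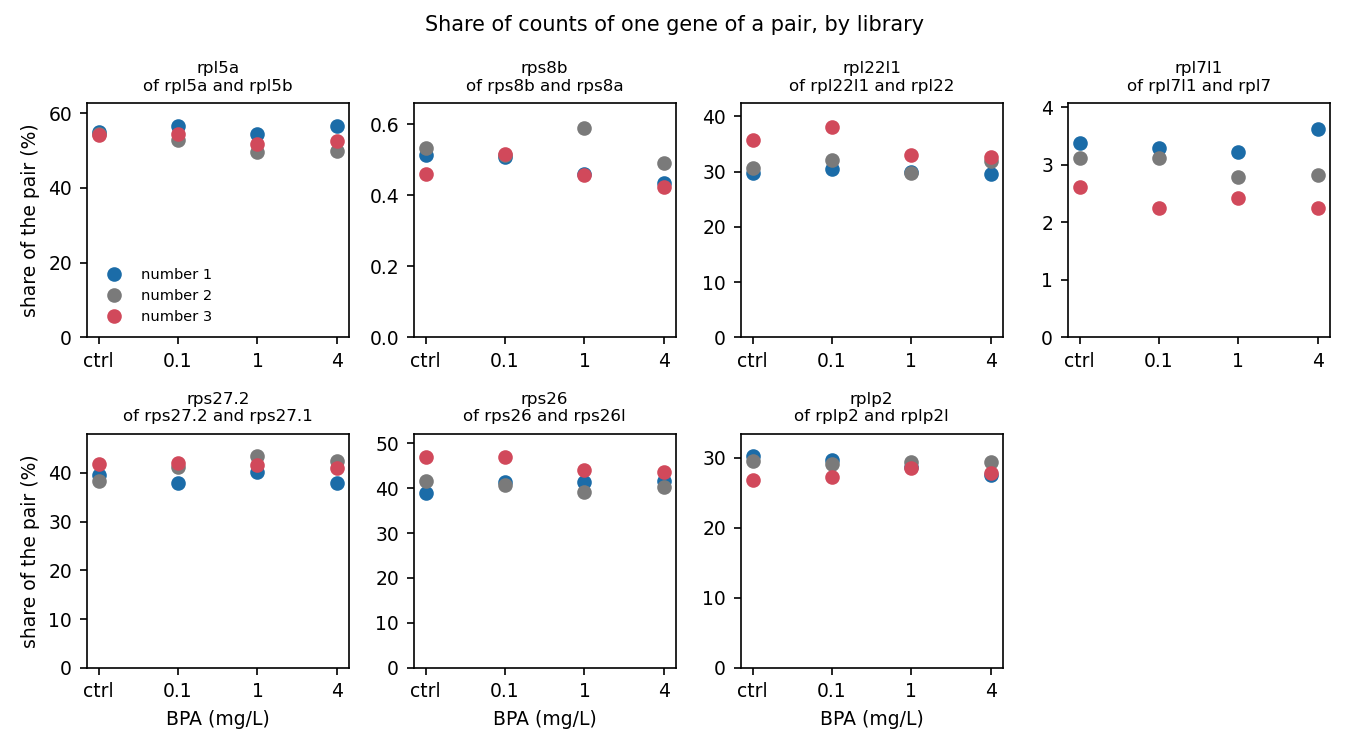
Share of the counts of a pair of related genes taken by the first gene (y axis, %, from 0), by BPA group (x axis, mg/L; ctrl is control). Points are libraries coloured by replicate number; in the pairs of rpl22l1 and rps26 the libraries numbered 3 are the highest in each group, and in that of rpl7l1 they are the lowest.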

How the data were processed

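Stranded poly-A libraries were made from 500 ng of total RNA with 15 PCR cycles and sequenced as pairs of 76 base reads, per the labels' protocols. The submitters' processing notes name CASAVA, STAR 2.5.1b, RSEM 1.2.28, DESeq2 1.10.1 and the build GRCz10, with no role or order. The deposited values are counts per gene without normalization. Rounding of estimated counts had been planned, but 0 values were not whole, so none was needed. How reads matching several genes were counted is not given in the sources used here.

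Groups and replicate numbers came from the sample titles. Genes were kept by filterByExpr (minimum count 10, total 15), scaled by TMM and fitted over all 12 libraries in edgeR 4.0.16 (R 4.3.3) with group as the only term, or with replicate number beside it for comparisons of numbers. Tests were 2-sided quasi-likelihood tests, Benjamini-Hochberg adjusted over 22399 genes. The standard error is the log2 fold change divided by the square root of F. Log2 CPM used a prior count of 2 for principal components. Lists were described by counts and medians only. On simulated counts, with no difference between replicate numbers beyond the changes put in, false calls were 7.43% for 4 mg/L against control. They were 5.23% for number 3 against 1.

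Between doses every pair of same-numbered libraries had a correlation of deviations from the group means above 0.1 (0.23 to 0.51). By this check their numbers pair. The main fits between doses still had group as the only term and left this pairing out. Values of the fit with the number as a block are given beside them. Between control and doses the libraries numbered 1 and 3 passed this check (0.21 to 0.45), and those numbered 2 did not (-0.24 to 0.0023).

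The genes and lists were chosen with earlier results of these data known. Named genes were those fixed by role, the 2 highest and 2 lowest members in each dose comparison with control, and the 4 highest and 4 lowest in number 3 against 1, with at most 3 called genes of the largest change from each other list. eif5a2, pabpc1a, eif5b, rpl4, rpl13a and rpl10 were named after their values were seen. A planned choice by level per coding length could not be applied. Levels were not set against transcript length, which is not used here, so levels of different genes are not compared. All 80 identifiers are in the gene name table, 9 with the same symbol, since most differ in case, and all 80 symbols are in the RefSeq gene table. Symbols in capitals (4), rplp2l, rps20 (typed processed transcript) and gnb2l1 fall outside the symbol rule. Results of some genes are not reported here. Alternatives were DESeq2 1.42.0, voom in limma 3.58.1, RLE, upper-quartile and no scaling, TMM without the 80 genes, 2 other count filters, a threshold of 0.01 on the adjusted p, a replicate block, fits to the compared groups alone, only the libraries numbered 1 and 2, and each library left out.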

Additional observations from a re-analysis of the deposited data

How the results depend on the processing

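Of 223 medians of the 80 genes recomputed under alternatives, 10 changed sign, all between control and a dose or between doses. Of the values of named genes, 816 kept their direction and their side of the threshold, 27 changed direction, 20 lost the call and 7 gained it. With library totals alone, number 3 against 1 had a median of 0.41 and 1 gene called lower, beside a median of -0.18 over all tested genes. DESeq2 called 1 gene higher between numbers 2 and 1. Between numbers 3 and 2 the 56 calls became 0 with only the groups compared and 0 at an adjusted p under 0.01. They ran from 0 to 69 with single libraries left out. The smallest adjusted p of any tested gene was 0.014 there (edgeR), so no gene could pass 0.01. Shares of all tested genes called in the other alternatives are not given here. The cause of these changes was not tested. Between control and doses the libraries numbered 2 did not pass the check of correlations, while those numbered 1 and 3 did. With the replicate block, 0 of 80 genes were called at 4 mg/L (smallest adjusted p = 0.072) beside 4.88% of all genes, and 18 had an unadjusted p under 0.05, beside 22.1% of all. In the block fit, 2 genes were called lower in the trend over dose ranks, rpl11 at -0.19 per rank (adjusted p = 0.0499, edgeR) and rpl36 at -0.18 (adjusted p = 0.042, edgeR), beside 4.26% of all genes, and 25 of 80 had an unadjusted p under 0.05, beside 22.9% of all; it changed no call between doses. With library totals alone, rps4x and rpl21 at 4 mg/L turned to 0.11 and 0.12, and rpsa and rpl7l1 in number 3 against 1 to -0.12 and -0.17. With single libraries left out, log2 fold changes at 0.1 mg/L ran from -0.38 to 0.19 for rpl11, -0.18 to 0.11 for rpl36, -0.10 to 0.37 for rps29 and -0.22 to 0.52 for rpl22l1. At 1 mg/L they ran from -0.042 to 0.18 for rps4x and -0.11 to 0.25 for rpl35, and at 4 mg/L from -0.16 to 0.075 for rps4x and -0.17 to 0.088 for rpl21. In number 3 against 1 they ran from -0.0061 to 0.13 for rpsa and -0.069 to 0.079 for rpl7l1.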
